A study of Mus musculus with 12 samples.

Results

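The untreated libraries of C17.2b and C17.2a cells were compared at matched times, without added hormone. The members were chosen by line, treatment and time as labelled, with no measured value: 6 of the 12 libraries of the series, 3 for each line, at 6, 12 and 24 h. C17.2 is an immortalised neural progenitor line from the cerebellum of newborn mice. Cells of the C17.2a line stably expressed a tagged thyroid hormone receptor alpha, and cells of the C17.2b line a tagged receptor beta. All libraries of both lines came from cells kept without serum for 24 h before the time course began. The other 6 libraries had received the active hormone triiodothyronine (T3), at 1e-07 M and for the same times. Per line, treatment and time there was 1 library, so the 3 times served as 3 pairs. The labels do not say whether a line was 1 clone, which promoter drove the receptor, or whether libraries came from separate cultures. The p-values therefore rest on the spread between these pairs, which may be technical. For each gene that spread was moderated by the spread of all genes together (2 residual and 7.9 prior degrees of freedom). Any property of the 2 stably transfected populations is part of the line difference beside the receptor type.

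Thyroid hormone receptors are nuclear receptors that sit on DNA with or without their ligand, mostly as heterodimers with retinoid X receptors. Without hormone they recruit corepressors to target genes, and T3 exchanges these for coactivators. Receptor alpha and receptor beta are products of the genes Thra and Thrb, are closely related in their DNA-binding and ligand-binding domains, and differ in which tissues express them. In the developing cerebellum thyroid hormone is known for its part in the migration and maturation of granule neurons, Purkinje cells and glia.

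Levels are given in RPM, the sequence tags of a gene scaled to a library total shared by all columns. A log2 fold change is C17.2b minus C17.2a on the log2(RPM + 1) scale over 3 pairs, with its standard error (SE) from the moderated fit. Because of the added 1, a low gene shows less than its true ratio on this scale. A gene is called where the limma fit gave a Benjamini-Hochberg adjusted p under 0.05 over the 10192 genes tested. The step between low values gave an implied depth of 7370000.0 to 19100000.0 tags per untreated library, so that 3 tags corresponded to 0.157 to 0.407 RPM, a floor that covers counting error only. One T3 library, C17.2a at 24 h, stood apart: the Spearman correlation across genes between the lines was 0.917 in the T3 pair of 24 h, against 0.966 to 0.974 in the other 5 pairs, and between T3 and untreated cells of 24 h it was 0.904 in C17.2a and 0.965 in C17.2b. This library enters no value of the fit of the 6 untreated libraries, but it enters the fits over all 12 libraries. The files give no sequencing batch. In a principal component analysis of the 6 untreated libraries, the first component (73.8% of the variance) separated both 24 h libraries from the earlier ones. The second component (15%) separated the lines, with C17.2a at -25.5, -17.8 and -16.8 and C17.2b at 18.0, 18.8 and 23.4.

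Progenitor and mesenchymal genes were measured at high levels in both lines. The intermediate filament gene Nes (nestin) was at 110.3, 119 and 642 RPM in C17.2a at 6, 12 and 24 h and at 111, 122 and 443 RPM in C17.2b. Vimentin (Vim) was at 1928 to 4941 RPM over the 6 libraries, and the stem cell factor gene Sox2 at 104 to 306 RPM. Some markers of differentiated cells were near 0: the astrocyte glutamate transporter gene Slc1a2 reached 0.18 RPM at most, the neuronal genes Elavl3, Elavl4, Syn1 and Gap43 each stayed at or below 0.27 RPM, and the astrocyte filament gene Gfap stayed between 0.94 and 1.52 RPM. Others of the same lists were present in both lines, such as the astroglial genes S100b (36.3 to 59.3 RPM) and Gja1 (122 to 214 RPM) and the neuronal tubulin gene Tubb3 (69.9 to 312 RPM). The summed level over the 6 libraries was 554 to 767 RPM for the 15 astroglial markers in the table and 257 to 660 RPM for the 20 neuronal markers. The neural crest and oligodendrocyte factor gene Sox10 (217 to 746 RPM) and the collagen gene Col1a1 (914 to 3778 RPM) were also present in both lines. In libraries of whole cultures, fewer cells of a type and less RNA per cell cannot be told apart.

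The receptor genes themselves did not separate the lines. Thra was at 3.40, 2.04 and 5 RPM in C17.2a at 6, 12 and 24 h and at 3.30, 2.24 and 5.83 RPM in C17.2b. Thrb was at 1.55, 0.98 and 1.33 RPM in C17.2a and at 1.94, 0.72 and 1.22 RPM in C17.2b. The levels of both genes overlapped between the lines, and neither was called (log2 fold change 0.08, SE 0.19, adjusted p = 0.852 for Thra, log2 fold change -0.02, SE 0.20, adjusted p = 0.967 for Thrb). Where on the transcript the tags lie, and whether the introduced tagged receptors carry that stretch, is not given in the sources used here, so these levels do not check the identity of the lines.

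Of the 10192 genes tested, 902 (8.85%) were called between the lines, 299 (2.93%) higher and 603 (5.92%) lower in C17.2b. All 902 had 1 sign in the 3 pairs, against 43.2% of the genes tested, and 163 of the higher and 316 of the lower had levels that did not overlap between the lines, against 10.3% of the genes tested. The calls rest on the same 3 pairs, so these shares describe the called genes and add no separate support. Of the higher genes 11 were under 1 RPM in every C17.2a library, and of the lower genes 40 in every C17.2b library. Such genes were tested only because all 3 libraries of the other line reached 1 RPM, so the filter fixed their lack of overlap. They include Rtn4rl1, S100a9, Mfap5, Vsnl1, Serpinb1a, Fgfr2 and B3galt2, named below. The median size of a called difference was 0.83 for the higher and 0.87 for the lower genes on the log2 scale, against 0.19 over all genes tested. At least a 2-fold difference was reached by 93 of the higher and 216 of the lower genes, and a log2 fold change of 2 in size by 12 and 21. Over all genes tested the median log2 fold change was -0.04.

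Several limits bear on these counts. When the library totals were replaced by median-ratio scaling, which sets the median gene equal, 344 genes were higher and 444 lower, so the share of lower genes among the calls moved from 66.9% to 56.3%. Without the 6 h pair, 163 genes were higher and 322 lower, and 382 of the 902 kept their call without each of the pairs in turn (125 higher and 257 lower). Without time as a block, 1 gene was called, Rtn4rl1. A fit over all 12 libraries, which include the T3 library that stood apart, called 443 of the same 902 genes (127 higher and 316 lower). Of the genes named below that kept their calls without each pair, Me1, Gadd45g, Prom1, Tubb3, Ncam1, Tnc, Itga7, Pou3f1, Ccna2, Ccnb1, Cenpa, Cyr61 and Fos were not called in that fit, and Prom1, Ccna2, Ccnb1 and Cenpa were not called when genes with low levels were kept in the test.

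**Figure D1:**
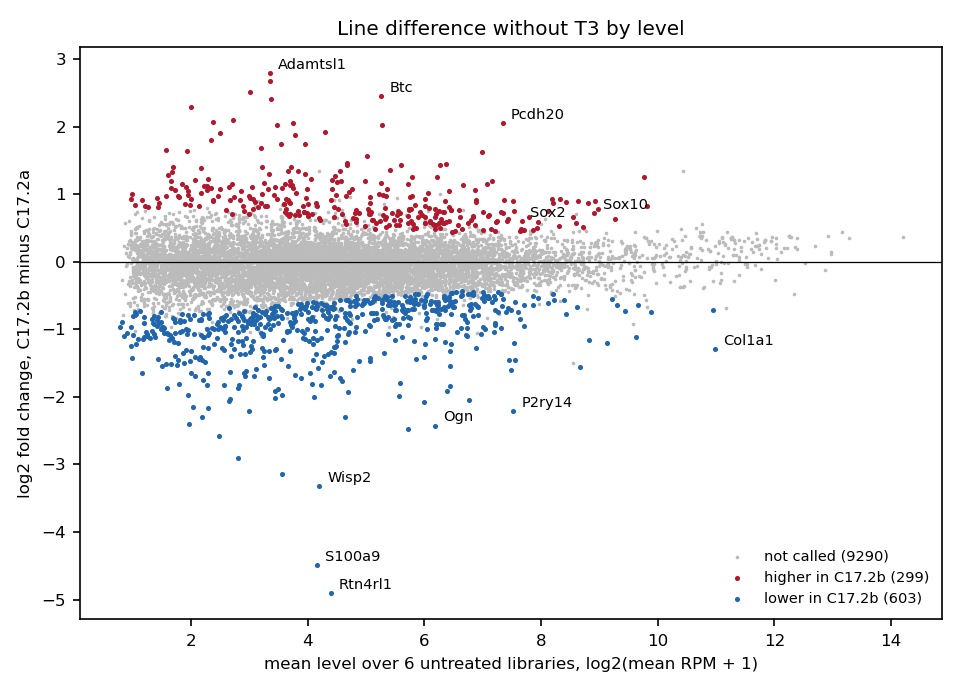
Each point is 1 of the 10192 genes tested: the x axis gives the mean level over the 6 untreated libraries as log2(mean RPM + 1), and the y axis the log2 fold change, C17.2b minus C17.2a. The 299 genes called higher in C17.2b (red) and the 603 called lower (blue) lie over most of the range of levels, and the points farthest from 0 are Rtn4rl1 and S100a9 on the lower side.

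Rtn4rl1 and S100a9, the genes furthest below, were expressed in C17.2a and close to the detection floor in C17.2b. Rtn4rl1, which encodes a relative of the Nogo receptor anchored in the membrane of neurons, was at 34.5, 33.4 and 51.03 RPM in C17.2a at 6, 12 and 24 h and at 0.21, 0.27 and 0.54 RPM in C17.2b. Every C17.2a library was thus far above every C17.2b library, whose values equal few tags (log2 fold change -4.90, SE 0.18, adjusted p = 1.45e-06). For genes so close to 0 the fitted size depends on the pseudocount.

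S100a9 was the gene that met the rule for expression in 1 line, with at least 3 RPM in every library of one line and at most 0.3 RPM in every library of the other. It encodes a calcium-binding subunit of calprotectin, a protein best known from neutrophils and other myeloid cells. Its levels were 15.5, 11.8 and 73.7 RPM in C17.2a and 0.10 and 0.27 RPM in C17.2b at 6 and 24 h, and the entry for C17.2b at 12 h was missing and read as 0. All C17.2b values were at or below the level of 3 tags. Against that level C17.2a was 98.5-fold, 43.9-fold and 181-fold higher at 6, 12 and 24 h (limma adjusted p = 0.000127 for the line difference). With so few tags in C17.2b these ratios are not strict lower limits. Its usual partner S100a8 was at 0.41 RPM or less in all 6 libraries, the microglial receptor gene Cx3cr1 at 0.42 RPM or less and the haemoglobin gene Hba-a1 at 0.07 RPM or less. The summed level of the 4 microglia and blood cell markers in the table was 11.9 to 74.4 RPM in C17.2a and 0.3 to 0.5 RPM in C17.2b, almost all of it S100a9.

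Wisp2, Ogn and Mfap5, which encode secreted proteins, were also among the lowest 15. Wisp2, a CCN family matricellular protein gene now named Ccn5, was at 29.5, 19.3 and 48.2 RPM in C17.2a and at 1.57, 1.79 and 3.26 RPM in C17.2b (log2 fold change -3.32, SE 0.20, adjusted p = 3.62e-05). Ogn, which encodes the small leucine-rich proteoglycan osteoglycin, was at 142, 99.2 and 122 RPM in C17.2a and at 19.8, 16.6 and 30.1 RPM in C17.2b (log2 fold change -2.42, SE 0.16, adjusted p = 5.72e-05). In both genes the lowest C17.2a library was several times the highest C17.2b library. Mfap5, a component of elastic microfibrils, was at 3.94, 7.55 and 23.3 RPM in C17.2a and at 0.47, 0.18 and 0.41 RPM in C17.2b, and the size of its difference was largest at 24 h (log2 fold change -2.90, SE 0.36, adjusted p = 0.00116).

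Receptors and signalling genes stood beside them. P2ry14, the receptor for UDP-glucose, was at 365, 385 and 166 RPM in C17.2a and at 68.5, 63.9 and 52.6 RPM in C17.2b (log2 fold change -2.20, SE 0.17, adjusted p = 0.000107), with all C17.2a libraries above all C17.2b libraries. Sfrp1, a secreted antagonist of Wnt ligands, was at 6.57, 8.44 and 10.6 RPM in C17.2a and at 0.21, 0.54 and 1.09 RPM in C17.2b (log2 fold change -2.58, SE 0.19, adjusted p = 7.84e-05). Fgfr2, a fibroblast growth factor receptor, was at 6.57, 5.95 and 4.59 RPM in C17.2a and at 0.31, 0.54 and 0.68 RPM in C17.2b (log2 fold change -2.15, SE 0.22, adjusted p = 0.000449). Among the others of the lowest 15 were the phospholipase gene Plb1, Pdgfrl, the neuronal calcium sensor gene Vsnl1, the carbonic anhydrase gene Car9, the IGF-binding protein gene Igfbp6 and the protease inhibitor gene Serpinb1a. Their log2 fold changes ran from -3.15 for Plb1 to -2.17 for Serpinb1a, and none of them overlapped between the lines.

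The 15 highest genes in C17.2b included Pcdh20, Ptprz1 and Negr1, which encode proteins of the cell surface. Pcdh20, a protocadherin, was at 55.1, 50.2 and 83.7 RPM in C17.2a at 6, 12 and 24 h and at 246, 229 and 302 RPM in C17.2b (log2 fold change 2.05, SE 0.12, adjusted p = 3.62e-05). Ptprz1, a receptor phosphatase of neural progenitors and glia, was at 3.48, 1.60 and 1.63 RPM in C17.2a and at 20.2, 19.4 and 9.63 RPM in C17.2b (log2 fold change 2.41, SE 0.22, adjusted p = 0.000258). Negr1, an adhesion protein of the immunoglobulin superfamily, was at 1.70, 1.24 and 1.43 RPM in C17.2a and at 7.18, 8.70 and 13.4 RPM in C17.2b (log2 fold change 2.09, SE 0.22, adjusted p = 0.000554). In each of these genes the lowest C17.2b library was above the highest C17.2a library.

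Matrix and growth factor genes were among the highest too. Adamtsl1, a secreted matrix protein related to the ADAMTS proteases, had the highest fold change and was at 1.86, 1.42 and 1.43 RPM in C17.2a and at 18.2, 15.9 and 16.3 RPM in C17.2b (log2 fold change 2.79, SE 0.18, adjusted p = 5.72e-05). Col15a1, a collagen of basement membrane zones, was at 0.93, 1.60 and 1.74 RPM in C17.2a and at 12.2, 11.03 and 14.9 RPM in C17.2b (log2 fold change 2.51, SE 0.20, adjusted p = 0.000114). Btc, which encodes the EGF receptor ligand betacellulin, was at 14.3, 11.6 and 6.23 RPM in C17.2a and at 93.3, 62.96 and 36.4 RPM in C17.2b (log2 fold change 2.45, SE 0.14, adjusted p = 3.62e-05). The level of Btc was lowest at 24 h in both lines, and the lines did not overlap at any time.

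Regulators inside the cell completed the group. Mark1, a kinase that acts on microtubule-associated proteins, was at 2.24, 1.51 and 1.43 RPM in C17.2a and at 21.7, 15.96 and 12.5 RPM in C17.2b (log2 fold change 2.68, SE 0.19, adjusted p = 5.81e-05). Cyfip2, a subunit of the WAVE complex that controls actin branching, was at 4.64, 3.64 and 4.39 RPM in C17.2a and at 22, 19.4 and 20.4 RPM in C17.2b (log2 fold change 2.05, SE 0.17, adjusted p = 0.000138). Prex1, an exchange factor for Rac GTPases, was at 11.1, 17.8 and 13.3 RPM in C17.2a and at 51.7, 82.9 and 48.8 RPM in C17.2b (log2 fold change 2.03, SE 0.14, adjusted p = 5.81e-05). Both lines kept their own narrow range in Cyfip2, whose levels varied less with time than the line difference. The others of the highest 15 were the galactosyltransferase gene B3galt2, the imprinted gene Ndn (necdin), the brain lipid-binding protein gene Fabp7, Phyhipl, the heparan sulfate sulfotransferase gene Hs3st3a1 and Egflam (pikachurin), with log2 fold changes from 2.29 for B3galt2 to 1.87 for Egflam and no overlap between the lines. All 30 genes were called without each pair in turn.

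**Figure D2:**
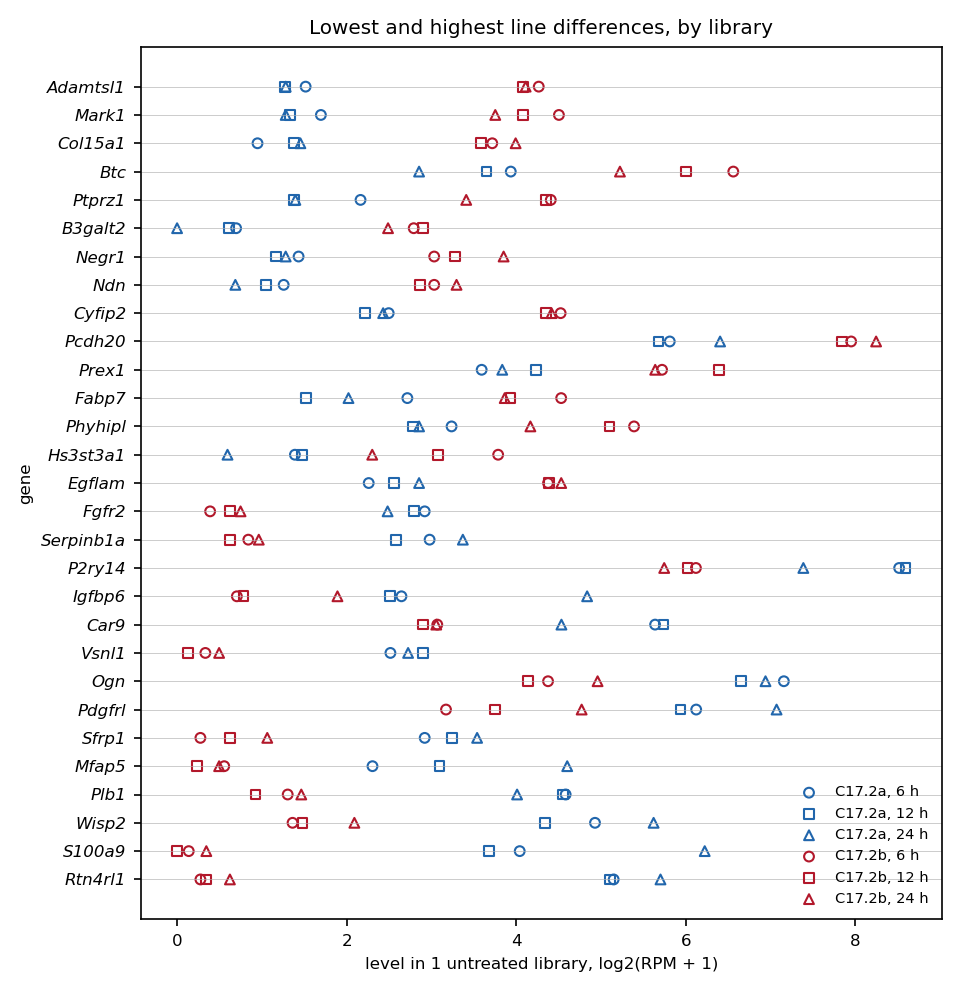
Each row is 1 of the 15 highest genes (top) or 1 of 14 of the 15 lowest (bottom), and each symbol the level in 1 untreated library as log2(RPM + 1), blue for C17.2a and red for C17.2b, with the shape giving the time. In every row the 3 libraries of one line lie apart from the 3 of the other, for example Pcdh20 at 50.2 to 83.7 RPM against 229 to 302 RPM.

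Promoter sequences are printed for 4 leading genes that have 1 RefSeq start, 2 of the lowest and 2 of the highest. The stretch upstream of the start can so be read beside the difference. The 4 are examples and do not stand for the leading genes as a whole. Each holds the 250 bases before the start, 5′ to 3′ on the gene's strand, from RefSeq on GRCm38.p6. The authors' build was mm9, and no coordinate comes from their table. Capitals mark CG pairs. The half-site AGGTCA of nuclear receptors, searched on both strands (TGACCT on the other), is in none of the 4. S100a9 lies at chr3:90695722-90695971 (minus strand) and Ogn at chr13:49607765-49608014 (plus strand), both lower in C17.2b. Col15a1 lies at chr4:47207762-47208011 (plus strand) and Btc at chr5:91402995-91403244 (minus strand), both higher in C17.2b.
S100a9: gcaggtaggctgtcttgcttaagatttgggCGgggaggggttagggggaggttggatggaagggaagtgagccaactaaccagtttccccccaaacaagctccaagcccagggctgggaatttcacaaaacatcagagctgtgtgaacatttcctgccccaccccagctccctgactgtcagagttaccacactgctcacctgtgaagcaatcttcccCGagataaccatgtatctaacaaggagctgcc
Ogn: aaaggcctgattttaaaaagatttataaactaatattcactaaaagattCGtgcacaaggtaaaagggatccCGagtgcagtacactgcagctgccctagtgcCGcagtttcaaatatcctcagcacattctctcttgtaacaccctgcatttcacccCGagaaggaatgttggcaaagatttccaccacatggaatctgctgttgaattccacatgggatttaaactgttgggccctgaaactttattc
Col15a1: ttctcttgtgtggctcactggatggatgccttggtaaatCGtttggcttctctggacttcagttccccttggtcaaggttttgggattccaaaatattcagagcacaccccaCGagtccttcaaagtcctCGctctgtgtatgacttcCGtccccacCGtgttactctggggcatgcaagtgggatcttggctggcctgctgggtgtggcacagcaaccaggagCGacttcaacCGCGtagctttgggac
Btc: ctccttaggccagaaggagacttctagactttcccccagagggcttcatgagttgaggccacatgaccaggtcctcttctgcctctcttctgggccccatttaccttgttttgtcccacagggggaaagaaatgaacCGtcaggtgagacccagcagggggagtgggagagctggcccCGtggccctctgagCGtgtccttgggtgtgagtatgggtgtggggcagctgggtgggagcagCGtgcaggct

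These 4 stretches held 2, 4, 8 and 4 CG pairs in the order printed, against a median of 17 in the 6423 tested genes with 1 promoter in the RefSeq table. The called genes as a whole had a median of 16 (153 higher genes) and 15 (345 lower genes). Fewer than 5 CG pairs were found in 13.1% of the higher, 18.6% of the lower and 7.12% of all promoters. AGGTCA or TGACCT was present in 10.5% of the higher, 8.12% of the lower and 9.64% of all promoters of this length, and a direct repeat of AGGTCA with 4 bases between was in 0 of them. A match is a description of these letters only, and the window leaves out enhancers.

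The counts of gene lists that follow stand against 8.85% of all genes tested that were called, 2.93% higher and 5.92% lower. Of all calls 66.9% were lower, or 56.3% with median-ratio scaling. Of 16 tested genes for receptors, retinoid X receptors, corepressors, coactivators and hormone transport, 2 were called, both higher in C17.2b, and the median log2 fold change was 0.05 against -0.04 over all genes. Hr, which encodes the corepressor hairless and is a known T3 target, was at 2.16, 1.69 and 4.29 RPM in C17.2a and at 4.29, 5.20 and 9.36 RPM in C17.2b and was higher at each time (log2 fold change 0.97, SE 0.20, adjusted p = 0.0137). Neither call held without every pair, and the adjusted p of Hr was 0.0581 without the 12 h pair. The transporter gene Slc16a10 (log2 fold change -0.46, adjusted p = 0.145) and the receptor partner gene Rxrb (log2 fold change 0.27, adjusted p = 0.265) were not called.

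Of 21 tested genes known to respond to T3, 3 were higher and 4 lower in C17.2b without hormone, and the median was -0.22. The potassium channel gene Kcna1 was at 24.7, 14.1 and 13.98 RPM in C17.2a and at 64.4, 41.2 and 24.4 RPM in C17.2b, higher at every time (log2 fold change 1.20, SE 0.17, adjusted p = 0.00216). Me1, which encodes malic enzyme, was at 269, 226 and 176 RPM in C17.2a and at 154, 125 and 124 RPM in C17.2b, with no overlap (log2 fold change -0.72, SE 0.12, adjusted p = 0.0067). Thbs1 (thrombospondin 1) was lower as well (log2 fold change -1.16, SE 0.20, adjusted p = 0.00614), as was the stress-response gene Gadd45g (log2 fold change -0.86, SE 0.16, adjusted p = 0.01). These 4 kept their calls without each pair. The genes with this known response thus lay on both sides of 0 at baseline.

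Neural markers differed gene by gene. Of 13 tested progenitor markers 3 were higher and 2 lower in C17.2b, with a median of 0.15, and of 11 tested neuronal markers 4 were higher and 1 lower, with a median of 0.24. Fabp7, a marker of radial glia, was at 5.57, 1.87 and 3.06 RPM in C17.2a and at 22.1, 14.3 and 13.6 RPM in C17.2b (log2 fold change 2.02, SE 0.19, adjusted p = 0.000344). Prom1, which encodes the stem cell surface protein prominin, was at 31.6, 34.02 and 21.6 RPM in C17.2a and at 129, 48.4 and 43.7 RPM in C17.2b (log2 fold change 1.16, SE 0.23, adjusted p = 0.0137). Cd24a, a surface protein of immature neurons and progenitors, went the other way, at 103, 100.1 and 49.3 RPM in C17.2a and 38.03, 30.8 and 20.5 RPM in C17.2b (log2 fold change -1.44, SE 0.13, adjusted p = 0.000273). The 3 genes had no overlap between the lines.

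Mapt, Syt4 and Tubb3, neuronal markers of the cytoskeleton and vesicles, were higher in C17.2b, though at modest size. Mapt (tau) was at 9.43, 6.66 and 11.2 RPM in C17.2a and at 22.99, 20.9 and 22.9 RPM in C17.2b (log2 fold change 1.23, SE 0.17, adjusted p = 0.00212). Syt4, a synaptotagmin, was at 29.2, 19.8 and 25.4 RPM in C17.2a and at 79.8, 44.4 and 42.2 RPM in C17.2b (log2 fold change 1.08, SE 0.16, adjusted p = 0.00249). Tubb3, neuronal tubulin, was higher at each time (log2 fold change 0.67, SE 0.14, adjusted p = 0.0164), while the adhesion gene Ncam1 was lower at each time (log2 fold change -1.03, SE 0.15, adjusted p = 0.00247). Mapt and Syt4 did not overlap between the lines, and Tubb3 and Ncam1 did.

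Glial markers were divided. Of 12 tested astroglial markers 1 was higher and 2 lower in C17.2b, and the clearest was Clu (clusterin), at 81.1, 85.5 and 234 RPM in C17.2a and 22.1, 20.4 and 73.7 RPM in C17.2b (log2 fold change -1.84, SE 0.13, adjusted p = 5.81e-05). Of 9 tested oligodendrocyte and Schwann cell markers 2 were higher and 2 lower. Sox10 was at 517, 348 and 217 RPM in C17.2a and at 746, 727 and 325 RPM in C17.2b, higher at every time (log2 fold change 0.72, SE 0.15, adjusted p = 0.0149), but without the 12 h pair its adjusted p was 0.0567. None of the 6 tested markers of the cerebellar granule lineage was called, the closest being Mycn (log2 fold change 0.43, adjusted p = 0.319). Nor was any of the 5 tested genes among Xist and Y-linked genes, with Ddx3y closest (log2 fold change -0.30, adjusted p = 0.186).

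Most called genes of mesenchymal cells and of the extracellular matrix were lower in C17.2b, as were 66.9% of all calls. With median-ratio scaling, 1 mesenchymal marker was called lower and 1 higher, and 8 matrix genes lower and 4 higher. Of 14 tested fibroblast and mesenchymal markers, 12 had a negative log2 fold change and the median was -0.48, but 3 were called lower and 1 higher, and 1 kept its call without each pair, Col1a1. The summed level of the 17 markers in the table was 9179 to 12424 RPM in C17.2a and 5178 to 8756 RPM in C17.2b. Col1a1, the main fibrillar collagen chain, was at 2208, 2589 and 3778 RPM in C17.2a at 6, 12 and 24 h and at 920.3, 914 and 1740 RPM in C17.2b, with no overlap (log2 fold change -1.29, SE 0.19, adjusted p = 0.00248). Whether a changed share of mesenchymal-like cells had a part in the other differences was not tested.

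Of 34 tested matrix genes, 9 were lower and 3 higher in C17.2b, with a median of -0.17. Loxl1, an enzyme that crosslinks elastin, was at 15.9, 20.3 and 35.3 RPM in C17.2a and at 5.45, 6.37 and 12.3 RPM in C17.2b (log2 fold change -1.46, SE 0.16, adjusted p = 0.000596). Col12a1, a collagen that associates with collagen fibrils, was at 78.4, 104 and 151 RPM in C17.2a and at 35.6, 33.5 and 83.96 RPM in C17.2b (log2 fold change -1.19, SE 0.15, adjusted p = 0.00137). Loxl1 did not overlap between the lines, and Col12a1 was lower at each time. Tnc (tenascin C), a matrix protein of developing brain, was higher in C17.2b, at 34.4, 47.2 and 184 RPM in C17.2a and 68.9, 104 and 268 RPM in C17.2b, with its highest level at 24 h in both lines (log2 fold change 0.88, SE 0.14, adjusted p = 0.00414). Of the 12 calls, 7 lower and 1 higher held without each pair.

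Genes that cut or protect the matrix also differed. Of 24 tested matrix proteases and inhibitors, 6 were lower and 1 higher in C17.2b, although the median of the list was 0.05. Serpine2, a serine protease inhibitor gene named after its values were seen because it was the 1 higher gene, was at 242, 236 and 137 RPM in C17.2a and at 481, 439 and 228 RPM in C17.2b (log2 fold change 0.87, SE 0.12, adjusted p = 0.0024). Adamts4, a protease that cleaves aggrecan, was at 59.5, 62.9 and 22.1 RPM in C17.2a and at 25.1, 16.8 and 8.95 RPM in C17.2b (log2 fold change -1.42, SE 0.16, adjusted p = 0.000792). Among 11 tested integrins 3 were lower and 1 higher, with the laminin receptor chain gene Itga7 at 86.8, 70.98 and 112 RPM in C17.2a and 35.8, 38.6 and 37.4 RPM in C17.2b (log2 fold change -1.22, SE 0.15, adjusted p = 0.00102).

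Among 37 tested genes of neural adhesion and axon guidance 10 were lower and 5 higher in C17.2b, with a median of -0.32, and 5 lower and 2 higher kept their calls without each pair. Sema3c, a secreted semaphorin, was at 199.8, 290.1 and 109 RPM in C17.2a and at 109, 107 and 61.2 RPM in C17.2b (log2 fold change -1.04, SE 0.14, adjusted p = 0.00205). Sema3e, of the same family, was higher instead, at 58.8, 51.2 and 28.5 RPM in C17.2a and 92.6, 87.7 and 60.2 RPM in C17.2b (log2 fold change 0.82, SE 0.13, adjusted p = 0.00414). The 2 semaphorin genes thus went in opposite directions, each with no overlap between the lines. Robo1, a receptor for Slit proteins, was lower (log2 fold change -1.14, SE 0.17, adjusted p = 0.00286). Of 22 tested ion channel genes 3 were higher and 3 lower, among them the calcium channel gene Cacna1a, at 108, 124 and 48.4 RPM in C17.2a and 27.9, 37.2 and 31.3 RPM in C17.2b (log2 fold change -1.41, SE 0.22, adjusted p = 0.00367).

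Called genes of signalling pathways were mostly lower in C17.2b. Of 30 tested growth factors and their receptors 9 were lower and 1 higher, with a median of -0.32. Vegfc, the lymphangiogenic growth factor, was at 15.5, 22.3 and 11.8 RPM in C17.2a and at 3.14, 3.41 and 3.12 RPM in C17.2b (log2 fold change -2.01, SE 0.20, adjusted p = 0.000394). Its relative Figf, now named Vegfd, was at 21.3, 22.8 and 33.6 RPM in C17.2a and at 5.03, 8.79 and 10.8 RPM in C17.2b (log2 fold change -1.57, SE 0.17, adjusted p = 0.000641). Both had no overlap, and with Fgfr2 and Pdgfb they were 4 of the 5 that kept their calls without each pair.

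The calls within the Wnt, BMP and Hedgehog lists included secreted antagonists and a co-receptor. Of 20 tested Wnt pathway genes 5 were lower and 1 higher (median -0.29), including Sfrp1 above and the pair of feedback inhibitors Nkd1, lower (log2 fold change -1.29, SE 0.23, adjusted p = 0.00822), and Nkd2, higher (log2 fold change 0.67, SE 0.13, adjusted p = 0.0101). Nkd2 was at 301, 287 and 275 RPM in C17.2a and at 458, 463 and 448 RPM in C17.2b, almost constant over time in each line. Of 28 tested genes of the TGF-beta and BMP pathways 6 were lower and 0 higher (median -0.09). Bmp4, a BMP ligand, was at 22.04, 17.3 and 13.7 RPM in C17.2a and at 6.86, 6.82 and 5.43 RPM in C17.2b (log2 fold change -1.32, SE 0.17, adjusted p = 0.00145), and the BMP antagonist gene Chrd was lower too (log2 fold change -1.50, SE 0.23, adjusted p = 0.00333). Among 8 tested Hedgehog pathway genes 2 were lower, with the co-receptor gene Cdon at 113, 149.8 and 117 RPM in C17.2a and 32.4, 35.4 and 67.5 RPM in C17.2b (log2 fold change -1.54, SE 0.21, adjusted p = 0.00183). Of 14 tested Notch pathway genes 2 were called lower, and 0 kept their call without each pair.

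Genes of antigen presentation and of the immune response were lower in C17.2b where called, with 1 exception. Of 10 tested genes of MHC class I and antigen processing 4 were lower and 0 higher, 9 had a negative log2 fold change, and the median was -0.53. H2-K1, a classical class I heavy chain, was at 224, 240.4 and 299 RPM in C17.2a and at 80.9, 102 and 159 RPM in C17.2b (log2 fold change -1.20, SE 0.14, adjusted p = 0.000723). H2-D1, its relative, was at 236, 243 and 332 RPM in C17.2a and at 102, 121 and 209.7 RPM in C17.2b (log2 fold change -0.96, SE 0.14, adjusted p = 0.0024). Neither overlapped between the lines, but tags of such similar genes may be shared or split between them. Tapbp (tapasin), which loads peptides onto class I molecules, was lower at each time (log2 fold change -1.33, SE 0.13, adjusted p = 0.000435).

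Of 20 tested interferon response genes 3 were lower and 0 higher (median -0.35), and of 17 tested cytokines, chemokines and their receptors 6 were lower and 1 higher (median -0.48). Tslp, an epithelial and stromal cytokine, was at 12.1, 7.91 and 10.2 RPM in C17.2a and at 1.94, 1.43 and 3.12 RPM in C17.2b (log2 fold change -1.82, SE 0.21, adjusted p = 0.000712). Ccl7, a monocyte chemoattractant, was at 35.1, 21.4 and 39.6 RPM in C17.2a and at 8.90, 6.46 and 14.1 RPM in C17.2b (log2 fold change -1.63, SE 0.16, adjusted p = 0.00036). Both had no overlap and were the 2 cytokine genes that kept their calls without each pair. The 1 higher gene was Cxcl14 (log2 fold change 1.05, SE 0.20, adjusted p = 0.0114), whose adjusted p without the 6 h pair was 0.0611.

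**Figure D3:**
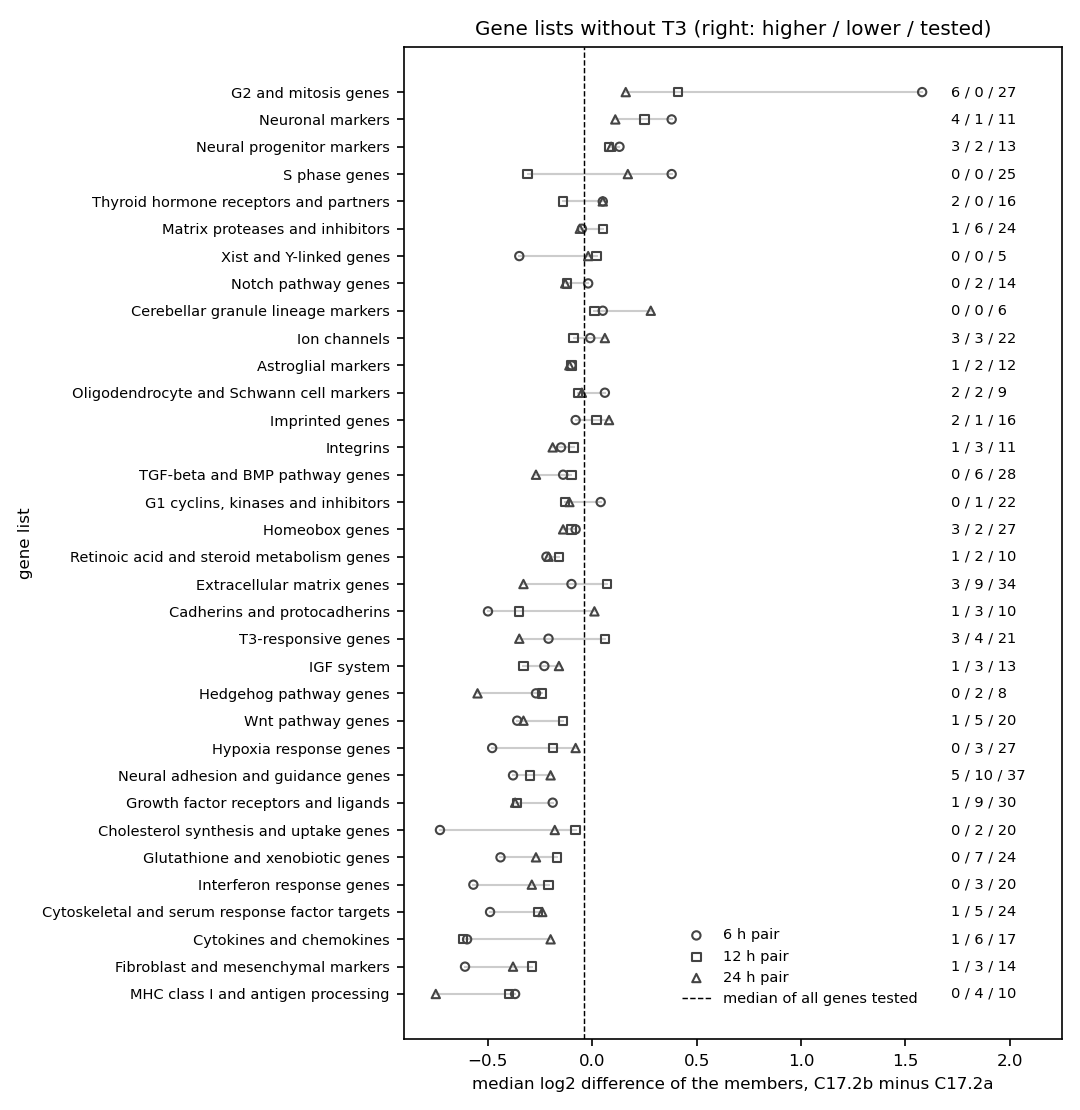
For each gene list with at least 5 tested members, the symbols give the median log2 difference of the members, C17.2b minus C17.2a, in the pairs of 6 h (circle), 12 h (square) and 24 h (triangle), and the numbers at the right give members called higher, called lower and tested. The dashed line is the median of all genes tested, -0.04, and the G2 and mitosis genes at 6 h lie farthest to the right, at 1.58.

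Metabolic and stress genes that were called were lower in C17.2b, apart from the immediate early gene Fos. Of 24 tested genes of glutathione and xenobiotic metabolism 7 were lower and 0 higher (median -0.34), but 1 of them, Gstt1, kept its call without each pair and 1 was called without the 6 h pair. Gstt1, a glutathione transferase, was at 29.8, 14.5 and 60.1 RPM in C17.2a and at 5.55, 4.84 and 20.2 RPM in C17.2b (log2 fold change -1.72, SE 0.19, adjusted p = 0.000643). Of 27 tested hypoxia response genes 3 were lower, against 5.92% of all genes tested (median -0.31), among them Car9, at 48.8, 52.3 and 22.1 RPM in C17.2a and 7.39, 6.46 and 7.32 RPM in C17.2b, with no overlap (log2 fold change -2.29, SE 0.24, adjusted p = 0.000501). Of 20 tested genes of cholesterol synthesis and uptake 18 had a negative log2 fold change (median -0.33, and -0.73 in the 6 h pair), but 2 were called lower, against the same 5.92%, and 0 without the 6 h pair. Of 24 tested cytoskeletal and serum response factor targets 5 were lower and 1 higher (median -0.40), with the matricellular gene Cyr61, now named Ccn1, at 97.7, 77.5 and 122 RPM in C17.2a and 40.1, 36.9 and 55.6 RPM in C17.2b (log2 fold change -1.15, SE 0.12, adjusted p = 0.000501), and Fos higher (log2 fold change 0.78, SE 0.12, adjusted p = 0.00414).

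Of 27 tested homeobox genes 3 were higher and 2 lower in C17.2b, against 8.85% of all genes tested that were called, and Pou3f1, a POU factor of neural and Schwann cell precursors, kept its call without each pair, at 2.55, 4.89 and 7.86 RPM in C17.2a and 6.55, 8.70 and 19.3 RPM in C17.2b (log2 fold change 1.0, SE 0.19, adjusted p = 0.0099). Of 16 tested imprinted genes 2 were higher and 1 lower. Ndn was at 1.39, 1.07 and 0.61 RPM in C17.2a and at 7.18, 6.28 and 8.82 RPM in C17.2b (log2 fold change 2.07, SE 0.23, adjusted p = 0.000599). Gatm, which catalyses the first step of creatine synthesis, was at 67.3, 81.99 and 37.97 RPM in C17.2a and at 168, 158 and 87.2 RPM in C17.2b (log2 fold change 1.14, SE 0.12, adjusted p = 0.000596). Both imprinted genes had no overlap between the lines.

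Genes of G2 and mitosis were higher in C17.2b in most members, most of all at 6 h. All 27 tested members had a positive log2 fold change (median 0.71) and 6 were called higher, of which Ccnb1, Cenpa and Ccna2 kept their calls without each pair, while Aurka had an adjusted p of 0.103 without the 6 h pair. Ccnb1 (cyclin B1), which drives entry into mitosis, was at 5.57, 20.5 and 58.9 RPM in C17.2a at 6, 12 and 24 h and at 31.1, 50.6 and 84.1 RPM in C17.2b (log2 fold change 1.35, SE 0.27, adjusted p = 0.0122). Cenpa, the histone variant of centromeres, was at 13.7, 21.5 and 126 RPM in C17.2a and at 44.9, 78.7 and 154 RPM in C17.2b (log2 fold change 1.26, SE 0.25, adjusted p = 0.0123). Each gene was higher in C17.2b at each time, both lines had their highest level at 24 h, and the lines overlapped.

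The difference of these genes was widest at 6 h. Their median log2 difference was 1.58 in the 6 h pair, 0.41 in the 12 h pair and 0.16 in the 24 h pair, and 23, 5 and 0 of the 27 were at least 2-fold higher in C17.2b. The background for such a difference was 3.07% of genes tested at 6 h, 3.21% at 12 h and 2.38% at 24 h, with no replicate within a pair. Their summed level in C17.2a was 455, 1511 and 1628 RPM in the order of the times, and in C17.2b it was 1312, 1816 and 2114 RPM. So the C17.2a library of 6 h was lowest by far, and C17.2b was above C17.2a at every time. Without the 6 h pair 3 members were called, without the 24 h pair 23, and in a fit over all 12 libraries 0.

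S phase and G1 genes had fewer calls. Of 25 tested S phase genes 0 were called, with a median difference of 0.38, -0.31 and 0.17 in the pairs of 6, 12 and 24 h. Of 22 tested G1 cyclins, kinases and inhibitors 1 was called, E2f1, lower in C17.2b (log2 fold change -0.62, SE 0.15, adjusted p = 0.0302), with an adjusted p of 0.0544 without the 12 h pair and 0.13 without the 24 h pair. The part of the cell cycle genes in the other differences of the 6 h pair was not tested.

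**Figure D4:**
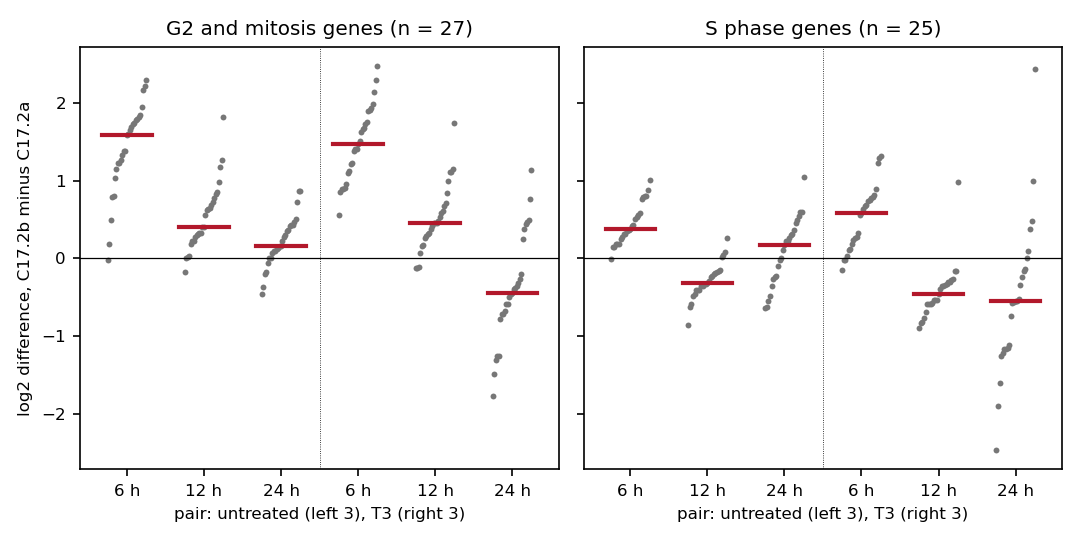
Each point is 1 gene and the red bars are medians: the y axis gives the log2 difference, C17.2b minus C17.2a, in the 3 untreated and the 3 T3 pairs, for 27 G2 and mitosis genes (left) and 25 S phase genes (right). The G2 and mitosis genes lie highest in both pairs of 6 h, with medians of 1.58 without and 1.47 with T3, and below 0 in the T3 pair of 24 h, which holds the library that stood apart.

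The line difference was present at each time, though not for the same number of genes. At least 2-fold higher in C17.2b were 313 genes (3.07%) at 6 h, 327 (3.21%) at 12 h and 243 (2.38%) at 24 h. At least 2-fold lower were 560 (5.49%) at 6 h, 363 (3.56%) at 12 h and 531 (5.21%) at 24 h. In all 3 pairs 56 genes were at least 2-fold higher and 157 at least 2-fold lower. These ratios carry a prior of 2 tags per library and no test.

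The T3 libraries of both lines gave the same line comparison in libraries that the untreated comparison had not used. Of the 299 genes higher in C17.2b without hormone, 280 (93.6%) were also higher in the T3 pair of 6 h, 278 (93.0%) in that of 12 h and 243 (81.3%) in that of 24 h. Of the 603 lower genes, 568 (94.2%), 557 (92.4%) and 389 (64.5%) were also lower. Over all genes tested the sign was shared by 67.5%, 64.0% and 52.8%. The share was lowest in the pair of 24 h, which holds the T3 library of C17.2a that stood apart, and the part of that library in it was not tested. The median difference of the higher genes was 0.83 without hormone and 0.77, 0.80 and 0.70 in the T3 pairs of 6, 12 and 24 h, and that of the lower genes -0.87 against -0.74, -0.68 and -0.34.

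In a fit of the T3 libraries of all 3 times, 1 of 10142 genes was called (0.00986%), Col15a1, with 1486 at an unadjusted p under 0.05, and 1698 of 10095 genes (16.8%) were called without the 24 h pair. That fit has 1 residual degree of freedom and takes its spread from all genes together. In it, 212 of 292 tested genes of the higher set and 404 of 584 of the lower set were called the same way, and 2 and 4 the opposite way. Of the 15 highest and 15 lowest genes together, 29 had the same sign in all 3 T3 pairs. The exception was Igfbp6, lower in C17.2b in the T3 pairs of 6 and 12 h (log2 difference -1.43 and -1.09) and higher in that of 24 h (1.10). Col15a1 differed by 3.57, 3.86 and 3.86 with T3, against 2.51 without. The difference between its line differences was 1.26 over all 12 libraries and was not called (SE 0.34, limma adjusted p = 0.703).

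**Figure D5:**
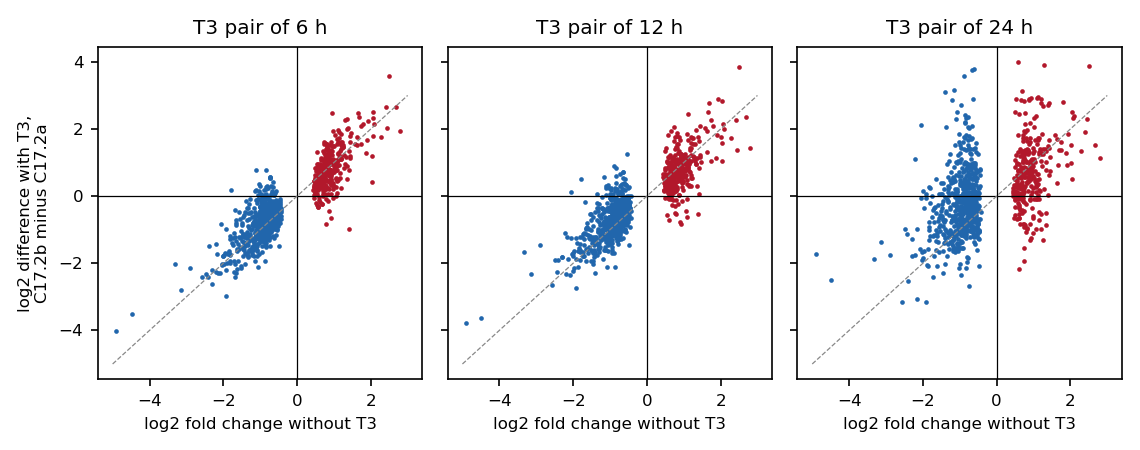
Each point is 1 of the 902 genes called without T3: the x axis gives its log2 fold change without T3 and the y axis its log2 difference in the T3 pair of 6, 12 or 24 h, both C17.2b minus C17.2a, with equality as a dashed line. At 6 h 280 of 299 higher genes (red) and 568 of 603 lower genes (blue) keep their sign, while at 24 h 243 and 389 do.

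One gene changed its line difference with hormone by its own test over all 12 libraries (1 of 10577 genes, 0.00945%, with 634 at an unadjusted p under 0.05). Tgm2, which encodes the crosslinking enzyme transglutaminase 2, was at 83.7, 60.9 and 75.1 RPM in C17.2a and at 20.1, 18.6 and 21.97 RPM in C17.2b without T3, with no overlap (log2 fold change -1.80, SE 0.13, adjusted p = 7.84e-05). With T3 it was at 145, 97.4 and 129 RPM in C17.2a and at 164, 139 and 113 RPM in C17.2b, and the lines overlapped. The difference between the 2 line differences was 1.96 (SE 0.22, adjusted p = 0.0376), and 2.17 (SE 0.21, adjusted p = 0.00154) without the 24 h libraries. That fit called 2 of 10187 genes (0.0196%), the second being Rgs16.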

How the data were processed

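The authors deposited 1 table of 12774 gene symbols in RPM, a unit read from the values, with 1 column for each of 12 libraries, with mm9 as genome build per the submitters' processing notes. How tags were aligned, given to genes, counted by strand and filtered is not given in the sources used here. Missing entries were read as 0. Low values lay on whole steps in 91.4% to 94.0% of cases per untreated library (tolerance 0.0055 RPM), so the step gave an implied depth, but too few values were whole for a count model.

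The 6 untreated libraries were fitted with limma 3.58.1 in R 4.3.3 (lmFit, eBayes with a trend, time as a block, 2 residual degrees of freedom) on log2(RPM + 1), for genes that reached 1 RPM in 3 or more of the libraries, with Benjamini-Hochberg adjustment over all 10192 genes and a threshold of 0.05. The same fit was made for the 6 T3 libraries, and 1 fit over all 12 libraries tested the change of the line difference with T3. Named genes were the 15 highest and 15 lowest log2 fold changes among called genes with 1 sign in 3 pairs and a mean of at least 2 RPM, any gene with at least 3 RPM in every library of one line and at most 0.3 RPM in the other, Thra and Thrb, and up to 4 members with the smallest p of each of 37 lists. The members and lists were chosen with earlier results of these data known. Some genes that meet this rule are not reported here. A few genes used to check the cell type are also given. Of the symbols, 11837 were current in RefSeq, 836 matched through a synonym and 101 matched none. Promoters are the 250 bases before the RefSeq start on GRCm38.p6, and the order of neighbouring genes comes from the same assembly. Alternatives were other pseudocounts, filters, scalings and models and leaving out each pair. When a pair was left out the filter asked for 1 RPM in 2 of the 4 libraries, a choice made after a filter of 3 of 4, which drops genes of 1 line, had been seen to give fewer calls. Dio3 and Thrsp were not analysed here. Tables and figures were made with Python 3.11.15.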

Additional observations from a re-analysis of the deposited data

Results flagged for a closer look

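The line difference of Tgm2 was -1.80 on the log2 scale without T3, and 0.18, 0.51 and -0.19 in the T3 pairs of 6, 12 and 24 h. Its signed change with T3 was 1.96 (SE 0.22, limma adjusted p = 0.0376), in a test of the difference itself over all 12 libraries. The level was lower in C17.2b than in C17.2a in 3 of 3 pairs without T3, and with T3 it was higher in C17.2b at 6 and 12 h and lower at 24 h. Without time as a block 0 genes passed this test.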

How the results depend on the processing

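The number of genes called between the lines moved by more than 1.5 times in some settings. Without time as a block 1 gene was called, 0 higher and 1 lower in C17.2b, and over all 12 libraries 443 (127 higher, 316 lower). When each pair was left out in turn, the count ran from 485 (163 higher, 322 lower) without the 6 h pair to 1152 (441 higher, 711 lower) without the 24 h pair. The fit without the 24 h pair had 1 residual and 44.8 prior degrees of freedom, so its spread came mostly from all genes together. With a filter in 3 of the 4 libraries, added after the data had been seen, it was 404 (141 higher, 263 lower) without the 6 h pair. With T3, the 1 call became 0 without the 6 h or the 12 h pair and 1698 without the 24 h pair, or 1573 with the filter in 3 of 4 libraries. The change of the line difference with T3 passed in 2 genes without the 24 h libraries and in 0 without the time block.

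For single pairs, a prior of 10 tags gave 199 higher genes at 6 h, 195 higher and 234 lower at 12 h and 350 lower at 24 h, and a 4-fold limit gave 47 higher and 114 lower at 6 h, 32 and 76 at 12 h and 42 and 90 at 24 h. The highest window of neighbouring genes had a median of 0.37 with 15 genes. Uncalled genes near 0 changed sign: Thrb was 0.02 with median-ratio scaling, 0.01 with voom on implied tags, and from -0.14 to 0.07 without 1 pair (0.07 without the 12 h pair, also with the filter in 3 of 4 libraries, and 0.0 without the 24 h pair). Without 1 pair En1 ran from -0.59 to 0.04 and Uty from -0.04 to 0.1. All 902 called genes kept their sign in each of the fits without 1 pair. Every one of the 15 highest and 15 lowest genes that was tested kept its call under the settings run, except without the time block, where Rtn4rl1 alone kept it. With the 5 RPM filter 22 of these 30 genes were tested.

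The depth sets a floor of 0.157 to 0.407 RPM, so genes at a few tags in one line have an uncertain size of difference. The labels name no replicate of a line at 1 time, and do not say whether a line is 1 clone. The lines were paired by time, and no pairing by replicate number was made, since each line, treatment and time has 1 library.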

Other observations

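Some genes called between the lines without T3 are neighbours in the order of a RefSeq gene table, and these runs were chosen after their values were seen. Among 10122 placed genes, 12 runs of at least 3 consecutive tested genes were called in the same direction, 10 lower and 2 higher in C17.2b. Over all genes tested 5.92% were called lower and 2.93% higher. Whether runs were more frequent than these shares give was not tested. The longest held 4 genes, the glutathione transferase genes Gstm7, Gstm6, Gstm2 and Gstm1, with log2 fold changes of -0.79, -1.03, -0.96 and -0.70. The complement genes C1rl, C1ra and C1s differed by -1.43, -1.30 and -1.63. The metalloreductase genes Steap2, Steap1 and Steap4 differed by -0.80, -1.36 and -1.65, and Parp14, Dtx3l and Parp9, genes of interferon-linked ADP-ribosylation, by -0.78, -0.67 and -0.84. Apol9a, Apol10b and Apol9b of the apolipoprotein L family differed by -1.58, -1.44 and -1.41. The higher runs were Npr2, Tmem8b and Reck (0.88, 0.88 and 0.69) and Myeov2, Otos and Gpc1 (0.59, 1.66 and 0.93). Several runs consist of related gene copies, whose tags may be shared between the copies. The windows of 25 neighbouring genes had medians from -0.43 (Slc50a1 to Dennd4b, 22 of 25 negative) to 0.26 (Gmfb to Zfp219, 20 of 25 positive), so no window reached a 2-fold difference in its median.

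Rgs16, a regulator of G protein signalling, was at 107, 110.6 and 118 RPM in C17.2a and at 199, 179 and 265 RPM in C17.2b without T3, higher in C17.2b with no overlap. With T3 it was at 41.5, 43.8 and 81.2 RPM in C17.2a and at 26.1, 25.2 and 31.96 RPM in C17.2b, lower in C17.2b with no overlap. The difference between its line differences was -1.83 (SE 0.23, limma adjusted p = 0.052) over all times and -1.50 (SE 0.19, adjusted p = 0.0163) without the 24 h libraries.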
